A study of Mus musculus with 4 samples.

Results

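The proteasome subunit genes are described here as 1 gene family across 4 arrays of mouse embryonic stem (ES) cells. Members were chosen by name: probe sets with a single gene symbol that starts with Psma, Psmb, Psmc, Psmd, Psme, Psmf or Psmg and a digit, with pseudogenes left out. The rule found 49 genes of the 18194 represented on the array, covered by 103 probe sets, and each gene was read from its brightest probe set. Of the 49, 47 encode subunits, activators, regulators or assembly factors of the proteasome. The other 2, Psmc3ip and Psme3ip1, meet the name rule but encode none of these. Another probe set, with 2 symbols, was left out by the rule, and Psme2 is not analysed here. The study compared ES cells by their copies of BAF250, the ARID subunit of the BAF (SWI/SNF) chromatin remodelling complex. Its groups are 2 homozygous knock-out lines (ko1 and ko2), 1 heterozygous line and 1 wild type line, each on 1 array. The growth protocol is the same for all 4: gelatin-coated wells, no feeder layer, and a serum-containing medium with what the labels call leukocyte inhibitory factor. The labels give neither strain, passage nor the design of the disrupted allele, and they do not say whether ko1 and ko2 are separate clones. The wild type and the heterozygote rest on a single culture each.

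The proteasome is the barrel-shaped protease that degrades proteins marked with ubiquitin chains. Its core particle is a stack of rings: outer rings of alpha subunits (Psma genes) gate the entry, and inner rings of beta subunits (Psmb genes) hold the proteolytic sites. A regulatory cap at either end recognises ubiquitin, removes it and unfolds the substrate with a ring of ATPases (Psmc genes) and a set of subunits that are not ATPases (most Psmd genes). Activators (Psme genes) can take the place of the cap and open the gate without ubiquitin, and dedicated chaperones (Psmg genes and a few Psmd genes) build the particle and leave it. In ES cells, which divide fast and turn over many proteins, the core and cap genes are abundantly transcribed, while the inducible beta subunits belong mainly to immune cells and to the response to interferon.

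The arrays differed in overall level, and every difference below is read against that. Over the 13730 tested genes, the median log2 difference of the homozygous lines was -0.75 from the wild type and -0.03 from the heterozygote, and that of the heterozygote from the wild type was -0.68, so a difference is given as a relative log2 difference, the fitted difference minus that of the median tested gene. The p-values test the difference as deposited, before that subtraction, so a gene near 0 as deposited can lie above the median gene with a high p; the 95% intervals are set around the relative difference and leave out the error of the median. Signals are MAS5 signals as deposited. Background, the brightest of 27 unspiked bacterial control probe sets, lay between 3.82 (ko2) and 7.57 (wild type). The ratio of 3' to 5' actin control probe sets, a sign of RNA integrity, was 5.01 for ko1, 2.61 for ko2, 1.30 for the wild type and 2.86 for the heterozygote. Arid1a, which encodes BAF250a, read 7.03, 3.57, 109 and 50.4 in the same order, and was called lower in the homozygous lines than in the wild type (relative log2 difference -3.52, limma adjusted p = 7.68e-06, a call lost with arrays centred on genes above background, with averaged probe sets and without the intensity trend, at adjusted p of 0.0956, 0.247 and 0.545). All 15 ES cell markers of a fixed list were above background on every array, with a summed signal of 856 and 989 for ko1 and ko2, 3643 for the wild type and 2122 for the heterozygote. Of 18 extraembryonic endoderm markers, 16 and 17 were above background in the homozygous lines, 7 in the wild type and 6 in the heterozygote, and their summed signal was 7340 and 4051 against 202 and 142. The part of these differences between the cultures in the values below was not tested. In such cultures a smaller share of one cell type and less RNA per cell cannot be told apart.

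None of the proteasome genes passed the test in any comparison of genotypes. Of the 49 members, 47 were bright enough to test (mean signal above 2.55). These 47 leave out Psma8 and Psmb9 and include Psmc3ip and Psme3ip1, which encode no proteasome component. All counts and medians of the tested members below include those 2 genes. In homozygous against wild type cells, limma called 0 of the 47 at an adjusted p of 0.05, where it called 1.02% of all tested genes. At an unadjusted p under 0.05 there were 11 members (23.4%), all lower in the signals as deposited. That share was 11.9% over all tested genes (10.1% counting lower ones alone) and 20.1% over the brighter ones, the genes above the median mean signal, which include 43 of the 47 members. With each array centred on its median tested gene, 2 members had an unadjusted p under 0.05, Psmc5 and Psmg1. The direction of the calls over all genes depends on the scaling: as deposited 55 genes (0.401%) were called higher and 85 (0.619%) lower, after quantile normalization 32 and 1, and centred on the median gene 45 and 5, with 0 members among them each time.

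As a family the members lay close to the median gene, with a narrower spread than all tested genes. Their median relative log2 difference was -0.08 between the homozygous lines and the wild type, -0.017 between the homozygous lines and the heterozygote, and -0.09 between the heterozygote and the wild type. The interquartile range of the members was 0.72 log2 units in the first of these comparisons, against 1.38 for all tested genes and 1.11 for the brighter ones. In 41 of the 47 members (87.2%) the homozygous mean lay within 1 log2 unit of wild type relative to the median gene, which held for 64.9% of all tested genes and 74.7% of the brighter ones. These figures describe members that passed a filter on signal, and no test was made of the family as a whole. The precision of a single gene is limited by the number of arrays: the 95% interval of a member's difference reached 1.14 log2 units to either side at the median, a factor of 2.20, and 1.07 at its narrowest. Changes of less than about that size could not be told from none even before adjustment, and the calls lay further out. Over all tested genes the smallest called difference from wild type, as deposited, was 2.02 log2 units for lower genes and 2.07 for higher ones. Relative to the median gene the smallest were 1.27 for lower and 2.82 for higher genes. The missing calls do not show equal expression.

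**Figure D1:**
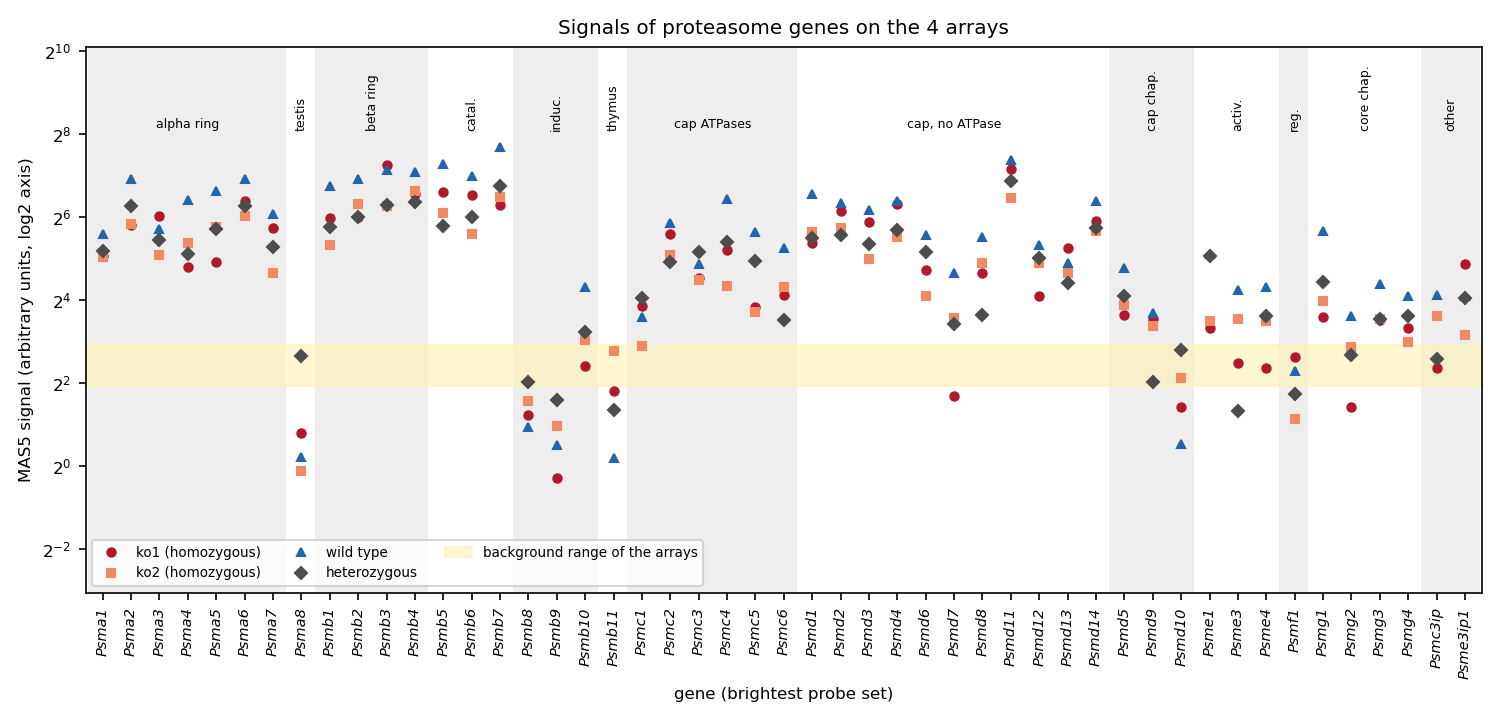
MAS5 signal (log2 axis, arbitrary units) of the brightest probe set of each of the 49 genes on each array, grouped by role, with the range of background over the arrays as a yellow band. The alpha and beta ring genes lie above the band on every array, often with the wild type highest, while Psma8, Psmb8 and Psmb9 lie in or under it.

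**Figure D2:**
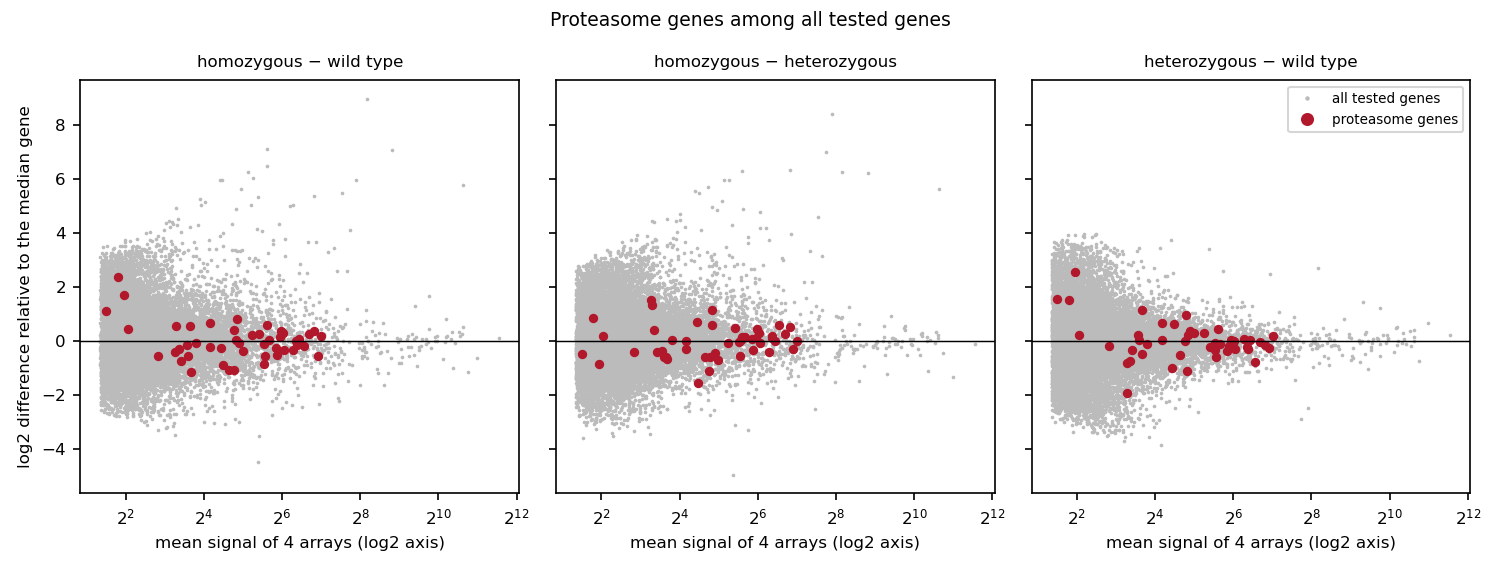
Relative log2 difference (vertical) against mean signal over the 4 arrays (horizontal, log2 axis) for the 13730 tested genes (grey) and the 47 tested members (red) in each comparison. The red points sit around 0 in all 3 panels, with medians of -0.08, -0.017 and -0.09, and the red points furthest above 0 against the wild type are at the dim end.

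The alpha ring genes Psma1 to Psma7 form the outer rings of the core and were detected above background on all arrays. Their relative log2 differences of homozygous minus wild type ran from -0.56 to 0.60, with a median of -0.11, 3 above the median gene and 4 below. Psma3 stood highest in this ring, with signals of 64.7 for ko1, 34.2 for ko2, 52.3 for the wild type and 43.7 for the heterozygote, and ko1 and ko2 lay on either side of wild type (relative log2 difference 0.60 ± 0.54 (SE), limma adjusted p = 0.902). Psma4 stood lowest, at 27.7 for ko1, 41.8 for ko2, 84.9 for the wild type and 34.6 for the heterozygote. Wild type was thus the highest array for Psma4 and the heterozygous array lay between the homozygous lines (-0.56 ± 0.54, limma adjusted p = 0.327). In Psma2 the groups did not overlap: its signals were 56.4 for ko1, 56.7 for ko2, 120.2 for the wild type and 77.1 for the heterozygote. Both homozygous lines were nearly equal and below both others, with relative log2 differences of -0.33 from the wild type and -0.41 from the heterozygote, neither past the test. Psma5 read 30.2 for ko1, 54.2 for ko2, 98.4 for the wild type and 52.7 for the heterozygote, so that ko1 alone was well below the heterozygous array. A second Psma5 probe set, above background on all arrays, had ko2 lowest and ko1 above the heterozygote. Its signals were 30.4 for ko1, 17.97 for ko2, 68.1 for the wild type and 27.4 for the heterozygote. Psma1, Psma6 and Psma7 stood at 0.21, 0.05 and -0.11, all with intervals that span the median gene.

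The beta ring genes lay in the same narrow band. Psmb1 to Psmb4, which carry no active site, had relative log2 differences of -0.34, -0.02, 0.37 and 0.25 for homozygous minus wild type. The structural gene Psmb3 was highest of this ring, with signals of 153 for ko1, 77.6 for ko2, 141 for the wild type and 78.7 for the heterozygote. On this probe set ko1 lay close to the wild type and ko2 close to the heterozygote. A second Psmb3 probe set, above background on all arrays, had ko1 nearer to ko2 and the heterozygote than to the wild type. Its signals were 40.9 for ko1, 34.1 for ko2, 63.4 for the wild type and 36.9 for the heterozygote. Its relative log2 difference was -0.006, beside 0.37 on the one used. Psmb1 was lowest of the structural genes, at 62.7 for ko1, 40.3 for ko2, 108 for the wild type and 54.6 for the heterozygote. The catalytic subunit genes are Psmb5, Psmb6 and Psmb7, which encode the chymotrypsin-like, caspase-like and trypsin-like sites. Psmb5 read 97.1 for ko1, 68.4 for ko2, 156 for the wild type and 55.1 for the heterozygote. The heterozygous array was lowest for this gene, below both homozygous lines, with a relative log2 difference of -0.81 ± 0.63 for heterozygous minus wild type (limma adjusted p = 0.612) and -0.18 ± 0.55 for homozygous minus wild type. Psmb6 read 92.4 for ko1, 48.2 for ko2, 127 for the wild type and 64.1 for the heterozygote, with heterozygous between the homozygous lines (-0.17 ± 0.55). Psmb7 had signals of 78.9 for ko1, 89.02 for ko2, 207 for the wild type and 107 for the heterozygote. It was the one catalytic gene in which each homozygous line was lower than the wild type and the heterozygote (-0.55 ± 0.56 against wild type, limma adjusted p = 0.348, and -0.32 ± 0.56 against heterozygous). All 7 beta ring genes lay below the median gene in heterozygous minus wild type, between -0.81 and -0.03. Of the brighter tested genes 54.1% also lay below it. The side was kept under every alternative by Psmb2, Psmb5, Psmb6 and Psmb7. Psmb1, Psmb3 and Psmb4 crossed to the other side, reaching 0.30, 0.02 and 0.12.

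Transcription of core and cap genes is known to be raised together by the factor NRF1 (gene Nfe2l1) through antioxidant response elements when proteasome activity is short, so the promoters of 2 catalytic genes are shown. The sequences are those of RefSeq for assembly GRCm38.p6, from 250 bases before the annotated start to 20 bases after it, read 5′ to 3′ on the strand of the gene, with the core of the element (TGACNNNGC on either strand) in capitals.
Psmb5 (chr14:54617976-54618245, minus strand): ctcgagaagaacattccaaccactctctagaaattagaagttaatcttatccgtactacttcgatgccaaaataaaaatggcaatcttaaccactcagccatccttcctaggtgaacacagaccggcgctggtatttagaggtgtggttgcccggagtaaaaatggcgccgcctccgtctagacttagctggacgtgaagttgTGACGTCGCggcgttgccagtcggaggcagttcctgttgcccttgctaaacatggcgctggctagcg
Psmb6 (chr11:70525107-70525376, plus strand): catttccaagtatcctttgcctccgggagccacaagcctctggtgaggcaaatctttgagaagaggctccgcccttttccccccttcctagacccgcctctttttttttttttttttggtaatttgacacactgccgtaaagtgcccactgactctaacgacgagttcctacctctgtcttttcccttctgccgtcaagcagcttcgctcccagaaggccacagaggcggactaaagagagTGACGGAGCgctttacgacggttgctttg
The Psmb5 match begins 47 bases before the start and that of Psmb6 begins 9 bases before it. Promoter windows of 300 bases were available for 41 of the 49 genes (44 windows), and not for Psma8, Psmb1, Psmb2, Psmb7, Psmc3, Psmd3, Psmd7 and Psmg2. The element was present in 6 of the 44 member windows (13.6%), those of Psmb5, Psmb6, Psmc6, Psmd9, Psmd12 and Psme4, against 12.4% of the 32851 promoter windows of all genes. The CCAAT box, searched as CCAAT on either strand, stood in 16 member windows (36.4%) and in 37.4% of all windows. Such matches are letters in a window and were not read as binding sites. Nfe2l1 itself read 56.2 for ko1, 35.7 for ko2, 42.3 for the wild type and 18.96 for the heterozygote, a relative log2 difference of 0.83 ± 0.55 for homozygous minus wild type (limma adjusted p = 0.945), and the related factor gene Nfe2l2 read 11.2 for ko1, 13.04 for ko2, 18.9 for the wild type and 7.57 for the heterozygote.

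Subunits of specialised proteasomes, apart from Psmb10, were at or near background. Psmb8 and Psmb9, which replace Psmb5 and Psmb6 in the immunoproteasome, were below background on every array. Psmb8 read 2.33 for ko1, 2.97 for ko2, 1.93 for the wild type and 4.04 for the heterozygote, and Psmb9 read 0.816 for ko1, 1.94 for ko2, 1.43 for the wild type and 2.98 for the heterozygote and was too dim to test. Psmb10, which replaces Psmb7, had signals of 5.33 for ko1, 8.22 for ko2, 19.9 for the wild type and 9.41 for the heterozygote. It was above background on 3 arrays and just under it in ko1, and each homozygous line was lower than the wild type and the heterozygote (-0.75 ± 0.77 against wild type, limma adjusted p = 0.435). The thymus-specific subunit gene Psmb11 read 3.48 for ko1, 6.77 for ko2, 1.15 for the wild type and 2.53 for the heterozygote, above background in ko2 only, so its relative log2 difference of 2.36 ± 1.32 carries no fold. Psma8, the alpha subunit of germ cells, read 1.73 for ko1, 0.920 for ko2, 1.17 for the wild type and 6.25 for the heterozygote and was not above background on any array. In the fixed list of interferon response and antigen processing genes, 7 of the 16 genes on the array were below background everywhere, and of 13 tested B2m, the light chain of class I molecules, was called higher in homozygous than in wild type cells (limma adjusted p = 0.00865), with signals of 22.3 for ko1, 28.3 for ko2, 1.54 for the wild type and 5.77 for the heterozygote. B2m was not above background in the wild type or the heterozygote, so no fold is given. Its call was kept at both other pseudocounts and with arrays centred on the median gene (limma adjusted p = 0.031), and lost after quantile normalization, with either other centring, without the filter, with averaged probe sets and without the intensity trend, with limma adjusted p from 0.0525 to 0.545 in these. The other 12 were not called.

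The ATPase ring of the cap, Psmc1 to Psmc6, spanned a wider range than the core rings. Its relative log2 differences of homozygous minus wild type ran from -1.08 to 0.56, 3 above the median gene and 3 below. Psmc5 had signals of 14.2 for ko1, 13.1 for ko2, 50.1 for the wild type and 30.8 for the heterozygote. The homozygous lines were nearly equal to each other and both below the wild type and the heterozygote, with relative log2 differences of -1.08 ± 0.58 (95% interval -2.25 to 0.08, limma adjusted p = 0.13) and -1.11 ± 0.58 (limma adjusted p = 0.743), while heterozygous minus wild type was -0.01. Psmc5 had the lowest adjusted p of all members against wild type, and its value kept to -1.22 to -0.99 over the alternatives run. Psmc4 read 37.2 for ko1, 20.4 for ko2, 86.03 for the wild type and 42.2 for the heterozygote, again with both homozygous lines lowest (-0.87 ± 0.55, limma adjusted p = 0.172); a second probe set, below background in ko2 and the wild type, stood at 0.39. Psmc1, at 14.5 for ko1, 7.44 for ko2, 11.96 for the wild type and 16.6 for the heterozygote, had its highest value in heterozygous and its lowest in ko2 (0.56 ± 0.71). Psmc2, Psmc3 and Psmc6 stood at 0.24, 0.38 and -0.28. The heterozygous array was highest for Psmc3 and lowest for Psmc6 among the 4 arrays.

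The Psmc5 promoter is shown since this gene had the lowest adjusted p; the stretch held none of the 4 motifs searched (TGACNNNGC, CCAAT, TTCNNNGAA and the interferon response element core given with Psme1), hence no capitals.
Psmc5 (chr11:106255935-106256204, plus strand): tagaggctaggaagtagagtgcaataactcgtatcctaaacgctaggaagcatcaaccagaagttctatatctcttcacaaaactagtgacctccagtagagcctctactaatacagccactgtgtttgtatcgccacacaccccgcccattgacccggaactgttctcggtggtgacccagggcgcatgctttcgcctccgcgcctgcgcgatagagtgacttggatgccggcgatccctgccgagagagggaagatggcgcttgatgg

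The cap subunits without ATPase activity include the scaffold genes Psmd1 and Psmd2, the ubiquitin receptor gene Psmd4, the deubiquitinase gene Psmd14 and the lid genes Psmd3, Psmd6, Psmd7, Psmd8, Psmd11, Psmd12 and Psmd13. Their median relative log2 difference of homozygous minus wild type was 0.02, 7 above the median gene and 4 below. Psmd13 stood highest, with signals of 38.3 for ko1, 25.1 for ko2, 29.8 for the wild type and 21.2 for the heterozygote; relative to the median gene of each array the homozygous lines were the highest pair (0.80 ± 0.56, limma adjusted p = 0.965), and the other probe sets above background on all arrays gave 0.09 and 0.37. Psmd7 stood lowest, at 3.22 for ko1, 11.8 for ko2, 25.2 for the wild type and 10.7 for the heterozygote. This rested on ko1, which was below background, while ko2 was close to heterozygous (-1.15 ± 0.77). Psmd6 read 26.3 for ko1, 17.1 for ko2, 47.8 for the wild type and 35.8 for the heterozygote, with both homozygous lines below both others (-0.40 ± 0.56 against wild type and -0.71 ± 0.56 against heterozygous). Psmd14, whose product cuts ubiquitin from the substrate, was among the flattest members at 59.5 for ko1, 50.97 for ko2, 84.3 for the wild type and 52.98 for the heterozygote, with relative log2 differences of 0.14, 0.09 and 0.02 in the 3 comparisons. Psmd4 read 80.2 for ko1, 45.5 for ko2, 83.3 for the wild type and 51.3 for the heterozygote, and Psmd2 read 70.8 for ko1, 53.7 for ko2, 81.3 for the wild type and 47.2 for the heterozygote. In both, ko1 was nearest to the wild type and ko2 to the heterozygote as deposited, on the probe sets used. On a second Psmd4 probe set, above background on all arrays, ko1 was instead the lowest array. Its signals were 16.3 for ko1, 22.6 for ko2, 39.9 for the wild type and 22.5 for the heterozygote. The relative log2 difference of homozygous minus wild type was -0.28 there, beside 0.29 on the one used. Psmd8 differed most in the heterozygous array, with 24.99 for ko1, 29.9 for ko2, 45.6 for the wild type and 12.4 for the heterozygote and a relative log2 difference of -1.14 ± 0.66 for heterozygous minus wild type (limma adjusted p = 0.556). Psmd11, a lid subunit that promotes assembly of the capped particle, read 143 for ko1, 87.8 for ko2, 167 for the wild type and 117 for the heterozygote on its brightest probe set (0.17). Its other probe sets above background on all arrays gave 0.19 and -0.43, and one with ko1 below background gave -1.73. Psmd1, Psmd3 and Psmd12 stood at -0.29, 0.02 and -0.07.

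**Figure D3:**
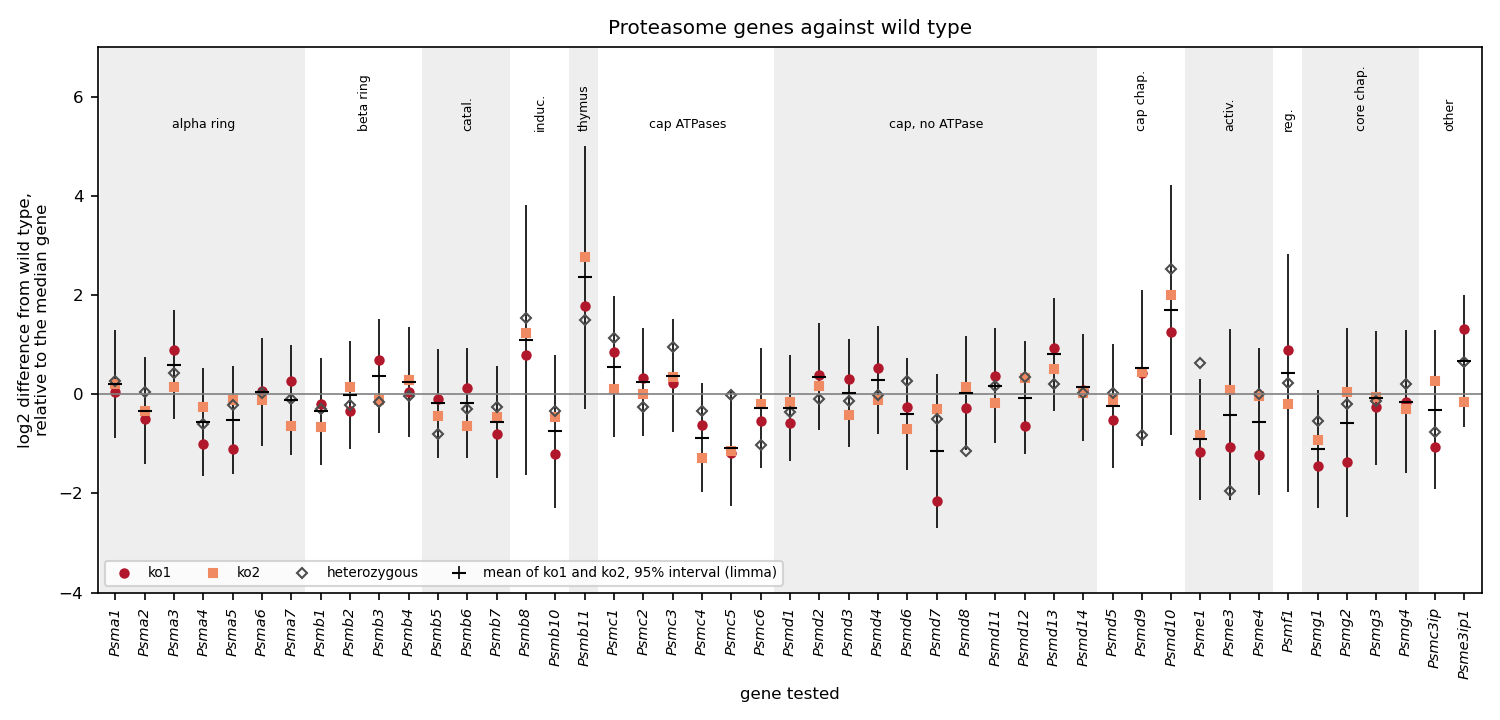
Relative log2 difference from wild type for each of the 47 tested genes, grouped by role: ko1 (circles), ko2 (squares), heterozygous (open diamonds), and the homozygous mean with its 95% interval from limma (bars). The interval spans the median gene (0) in all 47.

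Of the activator genes, Psme1 differed most between lines with and without an intact copy. Psme1 encodes the alpha subunit of PA28, an activator induced by interferon, and its signals were 9.97 for ko1, 11.2 for ko2, 34.8 for the wild type and 33.4 for the heterozygote. The homozygous lines were close to each other and both lower than the wild type and the heterozygote, which were nearly equal as deposited. Against heterozygous the relative log2 difference was -1.57 ± 0.60 (95% interval -2.78 to -0.35), with an unadjusted p of 0.011 and a limma adjusted p = 0.428. It was the only one of the 47 members with an unadjusted p under 0.05 in that comparison (2.13%). That share was 6.88% over all tested genes (1.94% counting lower ones alone) and 11.2% over the brighter ones. Psme1 was also the only member whose interval in that comparison did not span the median gene. With arrays centred on the median gene Psmc5 was under 0.05 as well (2 of 47). Against wild type the relative log2 difference of Psme1 was -0.91 ± 0.60 (limma adjusted p = 0.239), -1.16 in ko1 and -0.83 in ko2, and -1.16 to -0.81 over the alternatives. The gene thus had the same direction against either array that kept an intact copy, without passing the test. Psme3, the nuclear activator PA28 gamma, read 5.56 for ko1, 11.7 for ko2, 18.8 for the wild type and 2.49 for the heterozygote. Here the heterozygous array was lowest and below background, so no size is given for heterozygous minus wild type (limma adjusted p = 0.578). A second Psme3 probe set, also below background in the heterozygote, did not have that array lowest. It read 6.27 for ko1, 6.52 for ko2, 17.9 for the wild type and 6.85 for the heterozygote. Psme4, the large activator PA200, read 5.16 for ko1, 11.2 for ko2, 19.8 for the wild type and 12.2 for the heterozygote on the probe set used (-0.55 ± 0.74 for homozygous minus wild type). Its other probe sets with 3 arrays above background gave -1.15 and -2.67, and ko1 was the lowest array on these and on the one used. Psmf1, the regulator PI31, was above background in ko1 only, at 6.18 for ko1, 2.19 for ko2, 4.85 for the wild type and 3.34 for the heterozygote.

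The Psme1 promoter is shown for its core of the interferon response element (GAAA, any 2 bases, GAAA, on either strand), in capitals, which lies just after the annotated start.
Psme1 (chr14:55578244-55578513, plus strand): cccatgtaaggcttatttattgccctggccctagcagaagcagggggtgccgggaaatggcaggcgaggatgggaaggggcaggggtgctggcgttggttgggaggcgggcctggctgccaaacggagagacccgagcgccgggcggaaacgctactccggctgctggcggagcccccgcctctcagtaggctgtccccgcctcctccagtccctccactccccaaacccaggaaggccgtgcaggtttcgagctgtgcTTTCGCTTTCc
This core stood in 5 of the 44 member windows (11.4%), those of Psmb3, Psmd4, Psmd9, Psme1 and Psmg4, against 3.44% of all promoter windows. The STAT site TTCNNNGAA stood in 3 member windows (6.82%), those of Psmb8, Psmd2 and Psmg1, against 8.30% of all. Of the 5 genes with the interferon element core, Psmb3, Psmd4 and Psmd9 stood above the median gene against the wild type (0.37, 0.29 and 0.53) and Psme1 and Psmg4 below it (-0.91 and -0.15). Second probe sets above background on all arrays gave -0.006 for Psmb3 and -0.28 for Psmd4. Irf1, an interferon regulatory factor gene, read 18.96 for ko1, 17.9 for ko2, 43.9 for the wild type and 39.3 for the heterozygote, with both homozygous lines lower as deposited (-0.48 against wild type, limma adjusted p = 0.389). Irf1 is a single uncalled gene of the interferon response and antigen processing list. The 13 tested genes of that list had a median of -0.13 against the wild type. The only one called in that comparison, B2m, was higher in the homozygous lines.

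Chaperones that assemble the core stood below the median gene in all 4 genes, between -1.10 and -0.08 for homozygous minus wild type, without a call, where 50.7% of the brighter tested genes also lay below it. The side was kept under every alternative by Psmg1 only: Psmg3 and Psmg4 stood at 0.069 and 1.29 with averaged probe sets, and Psmg2 at 0.052 without ko1. Psmg1, which pairs with Psmg2 to assemble the alpha ring, read 12.1 for ko1, 15.6 for ko2, 51.2 for the wild type and 21.5 for the heterozygote. Both homozygous lines were lowest and heterozygous lay between them and wild type (-1.10 ± 0.59 against wild type, 95% interval -2.29 to 0.09, limma adjusted p = 0.136; -0.54 ± 0.68 for heterozygous minus wild type). Its partner Psmg2 read 2.68 for ko1, 7.27 for ko2, 12.2 for the wild type and 6.33 for the heterozygote, above background in ko2 and the wild type only. Psmg3 was nearly equal in ko1, ko2 and the heterozygote, at 11.4 for ko1, 11.7 for ko2, 20.97 for the wild type and 11.6 for the heterozygote (-0.08 ± 0.67). Psmg4, the partner of Psmg3, read 9.99 for ko1, 7.95 for ko2, 17.1 for the wild type and 12.2 for the heterozygote (-0.15 ± 0.71). The maturation factor gene Pomp, which lies outside the name rule, read 46.4 for ko1, 34.9 for ko2, 69.7 for the wild type and 45.3 for the heterozygote and stood at -0.04, next to the median gene.

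The chaperones of the cap base lay on both sides of the median gene. Psmd5 read 12.4 for ko1, 14.7 for ko2, 27.4 for the wild type and 17.2 for the heterozygote, slightly lower in both homozygous lines than in both others (-0.24 ± 0.62). Psmd9 read 11.6 for ko1, 10.4 for ko2, 12.9 for the wild type and 4.08 for the heterozygote. As deposited the homozygous lines and wild type were alike for Psmd9, and the heterozygous array was below background. Relative to the median gene both homozygous lines lay above the wild type (0.53 ± 0.79 for homozygous minus wild type). Against the heterozygote there was no call (limma adjusted p = 0.809). Psmd10, also known as gankyrin, read 2.68 for ko1, 4.32 for ko2, 1.44 for the wild type and 6.94 for the heterozygote, below background in ko1 and the wild type and just above it in the others, and its relative log2 difference of 1.70 ± 1.26 has no call.

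Counted over all tested members, the homozygous lines were the lowest pair in 14 of 47 as deposited, where this held for 26.9% of all tested genes, and the highest pair in 1, against 11.0%. Relative to the median gene of each array they were lowest in 11 and highest in 4, against 21.4% and 18.1% of all tested genes. The 11 were Psmg1, Psmc5, Psme1, Psmc4, Psmb10, Psmb7, Psme4, Psmd6, Psma2, Psmd5 and Psmg4, which include 2 of the 3 activator genes and members of the alpha ring, the beta ring, the inducible subunits, the cap and the assembly factors. The 4 were Psmd2, Psmd9, Psmd13 and Psmb11, the last at background. No role held all of its members among the 11.

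**Figure D4:**
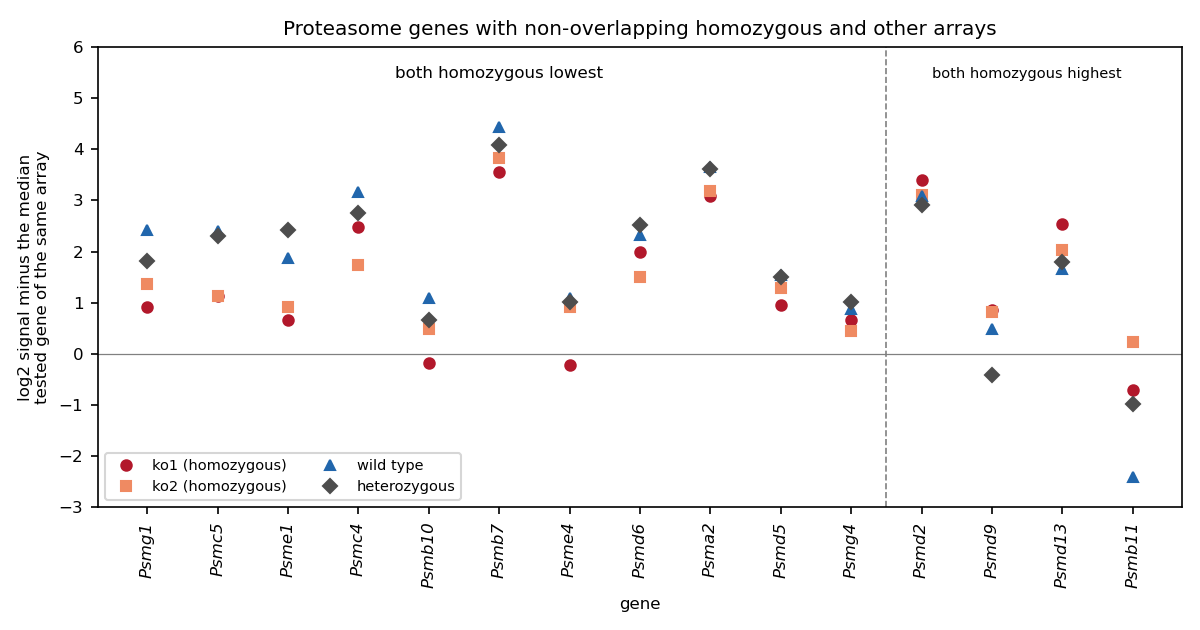
Log2 signal minus the median tested gene of the same array for the 15 tested members in which both homozygous lines lay on one side of wild type and heterozygous. Psmc5 and Psme1 show the widest gap between the pairs on the left, with the homozygous lines close together under the other arrays, while for Psmd2 ko2 lies just above the wild type.

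The heterozygous line was compared with the wild type, 1 array against 1 array. An effect of losing 1 copy cannot be told apart there from a difference between the cultures or the arrays. Of 47 members limma called 0, where 0.0146% of all tested genes were called (2 genes). At an unadjusted p under 0.05 there were 5 (10.6%, against 7.56% of all tested genes, 7.25% counting lower ones alone): Psma4, Psmb5, Psmc6, Psmd8 and Psme3, all lower as deposited, and 0 once the arrays were centred on the median tested gene. Of the 47, 20 stood above the median gene and 27 below. In homozygous minus heterozygous limma again called 0 of 47, against 0.757% of all tested genes (0.699% higher and 0.0583% lower). The comparisons share arrays, so their values for one gene are not independent. When the arrays of the wild type and the heterozygote were pooled into 1 group, limma called 0 of 47 as well, against 0.655% of all tested genes (0.444% higher and 0.211% lower). There 3 members, Psmc5, Psme1 and Psmg1, had an unadjusted p under 0.05, all lower, against 7.83% of all tested genes (5.63% counting lower ones alone).

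The homozygous lines were also set against each other, as a measure of the spread behind these values. On the centred log2 scale ko1 minus ko2 had a median of -0.08 over the 47 members, with quartiles of -0.43 and 0.52. The quartiles were -0.66 and 0.78 over all tested genes and -0.43 and 0.65 over the brighter ones. Of the cap genes 11 of 17 were higher in ko1, as were 7343 of the 13730 tested genes and 3900 of the 6865 brighter ones. The 3 activator genes were lower in ko1, from -1.12 to -0.26. Psmd7 was furthest apart at -1.78, followed on the other side by Psme3ip1 at 1.55. The actin ratio was also furthest from the others in ko1 (5.01 against 2.61 in ko2), and its part in these differences was not tested.

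Genes that work with the proteasome were read from fixed lists. Of 14 tested partners outside the name rule, such as Pomp, the deubiquitinases Usp14 and Uchl5 and the shuttle factors Rad23b and Ubqln1, 0 were called in homozygous against wild type and the median relative log2 difference was -0.12. In homozygous against heterozygous 1 was called, Ubqln2, a ubiquitin shuttle factor, with signals of 77.9 for ko1, 32.4 for ko2, 18.1 for the wild type and 9.004 for the heterozygote (2.43 ± 0.59, limma adjusted p = 0.0264). The call on Ubqln2 was lost with arrays centred on the median gene (limma adjusted p = 0.173) and in most other alternatives, over which its limma adjusted p ran from 0.0148 to 0.758. Its relatives Ubqln1 and Ubqln4 stood at 0.12 and -0.87 in that comparison, and against the wild type the 2.18 ± 0.59 of Ubqln2 did not pass (limma adjusted p = 0.321). Of 14 tested genes for ubiquitin-activating and conjugating enzymes and the unfoldase p97 with its cofactors, 0 were called in any comparison (median -0.15 for homozygous minus wild type); the p97 gene Vcp read 127 for ko1, 125 for ko2, 158 for the wild type and 95.03 for the heterozygote. Of 10 transcription factor genes linked to proteasome genes, 0 were called in any comparison (median 0.09). Sem1, a small cap subunit named outside the rule, read 79.96 for ko1, 59.1 for ko2, 72.7 for the wild type and 40.1 for the heterozygote (0.67). Adrm1, a ubiquitin receptor of the cap, is not analysed here.

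Second probe sets set a limit on reading single members. Of the 49 genes 27 had more than 1 probe set, 54 further probe sets in all, of which 12 were above background on all arrays. In 5 of those 12 the homozygous minus wild type difference was on the same side of the median gene as that of the probe set used, and in the other 7 on the opposite side. Psma5 was one that kept its side, at -0.77 beside -0.52, while Psmc2 went from 0.24 to -0.31 and Psmb1 from -0.34 to 0.27. Psmc5, Psme1 and Psmg1 have a single probe set each, so no second reading of them was possible. The 2 members that encode no proteasome component were Psmc3ip, a meiotic recombination factor, and Psme3ip1. Psmc3ip read 5.09 for ko1, 12.3 for ko2, 17.4 for the wild type and 6.002 for the heterozygote. Psme3ip1 read 29.2 for ko1, 8.88 for ko2, 17.2 for the wild type and 16.7 for the heterozygote.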

How the data were processed

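Total RNA of 4 mouse ES cell cultures (8 microgram each, Trizol) was labelled with biotin and hybridised to 1 Affymetrix array per culture, per the labels' protocols. The authors deposited 1 linear signal intensity for each probe set and array, made with MAS5 per the submitters' processing notes; for its version, scaling and presence calls the sources used here say nothing. The array's 45101 probe sets include 34958 with 1 gene symbol in the platform annotation; those with several or none were left out. All 49 members matched the RefSeq gene table (GRCm38.p6) by gene ID.

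Signals were analysed as log2(signal + 0.675), 0.675 being the 20th percentile of all values, so fold changes of dim genes are understated. Each of 18194 genes was read from its brightest probe set, and 13730 with a mean signal above 2.55 (40th percentile over probe sets) were tested with limma 3.58.1 in R 4.3.3: 1 mean per genotype, eBayes with intensity trend, Benjamini-Hochberg adjustment over all tested genes, threshold 0.05. The fit has 1 residual degree of freedom, the spread between ko1 and ko2, which stands in for the single wild type and heterozygous arrays; with information shared across genes the total was 47.6. A second fit of 2 groups has 2. The labels do not say that ko1 and ko2 came from separate cultures, so the spread behind each p-value is that of these 2 samples and may be technical. The script was tested on simulated data. The number of arrays, not depth, limits precision, and on any array a signal under the brightest unspiked control counts as background.

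By the rule for named genes every member could be named, and signals are printed for called genes of the lists on proteasome function, for Psma8, Psmb11, Psmf1 and the inducible, catalytic, activator and chaperone genes, and for the highest and lowest member of each role against the wild type; marker lists are given as counts, and signals of other members named were chosen after their values were seen. The members, lists and rule were chosen with earlier results of these data known. Alternatives were 2 other pseudocounts, quantile normalization, centring on 3 sets of genes, no filter, probe sets averaged, plain _at probe sets only, no trend, and leaving out either homozygous array; centring on the genes above the median mean signal was chosen after seeing the data. Lists of ES cell, extraembryonic endoderm, fibroblast, immune and trophoblast markers were read too: of 7, 6 and 8 tested genes of the last 3 lists, 0, 0 and 2 were called higher in homozygous than wild type cells and 0 lower; against the heterozygote 1, 0 and 1 were called higher.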

Additional observations from a re-analysis of the deposited data

How the results depend on the processing

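The number of proteasome genes called stayed at 0 in all 4 comparisons under every alternative that gives a test: the other pseudocounts, quantile normalization, the 3 centrings, no filter, averaged or plain _at probe sets, no intensity trend and, in the fit of 2 groups only, leaving out either homozygous array. Leaving one out of the fit by genotype leaves no residual degree of freedom, so no count was made there. Over all genes the count for homozygous minus wild type moved from 140 to between 0 (no intensity trend) and 203 (larger pseudocount), with 56 at the pseudocount divided by 16, 33 after quantile normalization, 50, 18 and 25 after centring on the median, on genes above background on every array and on the brighter genes, 44 without the filter, 7 with averaged and 59 with plain _at probe sets; for homozygous minus heterozygous it moved from 104 to between 0 and 111, for heterozygous minus wild type from 2 to 0 or 2, and in the fit of 2 groups from 90 to between 8 and 202.

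The median relative log2 difference of the members is small against any single gene's error, and it depends on the setting. For homozygous minus wild type (-0.078) it was -0.021 at the smaller and -0.16 at the larger pseudocount, -0.0091 after quantile normalization, -0.20 without the filter, -0.12 with averaged and -0.11 with plain _at probe sets, and -0.16 to -0.12 with one homozygous array left out. For homozygous minus heterozygous (-0.017) it was 0.0080 at the smaller pseudocount, -0.074 after quantile normalization, -0.068 without the filter, -0.045 with plain _at probe sets and -0.14 to -0.11 with one homozygous array left out. For heterozygous minus wild type (-0.095) it was -0.043 and -0.16 at the other pseudocounts and 0.056 after quantile normalization. The cause was not tested. No member passed the test under any alternative; of 188 differences of single members, 96 kept their side of the median gene throughout. No paired analysis was possible because only the homozygous group has numbered lines.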
